A study of Mus musculus with 8 samples.

Results

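The genes described here build and load the MHC class I complex, the molecule that displays fragments of a cell's own proteins on its surface. They are the 10 genes H2-K1, H2-D1, B2m, Tap1, Tap2, Tapbp, Psmb8, Psmb9, Psmb10 and Nlrc5, found by symbol in the GENCODE M21 annotation of GRCm38. All 10 were among the 19493 endogenous genes of the count table, and all 10 were expressed enough to be tested, with 16470 genes in all. They were measured by RNAseq of poly(A) RNA in 8 mouse embryonic fibroblast (MEF) cultures from E14.5 embryos labelled with the strain background C57BL/6J.129P2; per the methods the mice had been backcrossed to C57BL/6JNimr. The 4 Wild-type (WT) libraries carry 2 copies of every autosomal gene, and the 4 libraries of genotype Dp(16Lipi-Zbtb21)1TybEmcf (Dp1Tyb) carry a germline duplication of chromosome 16 from Lipi to Zbtb21 in every cell, giving 3 copies of the genes there. All cultures grew in DMEM with serum, antibiotics and 2-mercaptoethanol, were detached with trypsin and received ERCC spike-in RNA, and the labels name no interferon treatment. The embryos had been decapitated, eviscerated and dissociated with trypsin, so cells of every type left in the body could enter the cultures. The methods derive MEFs from littermate embryos of both genotypes. They do not say whether each of these 8 spike-in libraries came from a separate embryo. The p-values therefore rest on the spread between these libraries, either of each gene or shared over genes, as given below.

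None of the 10 genes lies in the duplicated region. H2-K1, H2-D1, Tap1, Tap2, Tapbp, Psmb8 and Psmb9 are on chromosome 17, B2m is on chromosome 2, and Psmb10 and Nlrc5 are on chromosome 8. The duplication does contain Ifngr2, which encodes a chain of the receptor for interferon gamma, and the comparison asks how these interferon-gamma type targets stood in cells with an extra copy of that receptor gene.

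In class I presentation, proteasomes cut cytoplasmic proteins into peptides. In the immunoproteasome, the subunits encoded by Psmb8, Psmb9 and Psmb10 take the places of the constitutive catalytic subunits encoded by Psmb5, Psmb6 and Psmb7. The transporter formed by the Tap1 and Tap2 proteins carries peptides into the endoplasmic reticulum, where tapasin (Tapbp) bridges it to the empty class I molecule. That molecule pairs a heavy chain, encoded by H2-K1 or H2-D1, with the light chain B2m, and Nlrc5 is a transactivator of the class I genes. Interferon gamma acts through the receptor chains Ifngr1 and Ifngr2 and the kinases Jak1 and Jak2, and induces this whole set in many cell types, fibroblasts included.

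Promoter windows were available for 8 of the 10 genes, from RefSeq on GRCm38.p6, each running from 250 bases before to 50 bases after the start of transcription; Tap2 and Nlrc5 were not matched. They were searched on both strands for the core of interferon regulatory factor sites (AANNGAAA), the gamma-activated sequence of interferon-gamma targets (TTCNNNGAA), the CRE (TGACGTCA) and the CCAAT box (CCAAT). Motifs were allowed to overlap. The windows of H2-K1, H2-D1, B2m and Psmb8 are shown because they hold a match to one of the first motifs, which is written in capitals. These genes also had the largest fold changes of the set with all 8 libraries, none of them called. That order depended on the libraries: without Dp1Tyb replicate 2 the log2 fold change was 0.17 for Psmb8 and 0.26 for Psmb10 (relative scaling). The windows shown pool different motifs, and a link between motif and fold change was not tested.
H2-K1, chr17:34000284-34000583, minus strand: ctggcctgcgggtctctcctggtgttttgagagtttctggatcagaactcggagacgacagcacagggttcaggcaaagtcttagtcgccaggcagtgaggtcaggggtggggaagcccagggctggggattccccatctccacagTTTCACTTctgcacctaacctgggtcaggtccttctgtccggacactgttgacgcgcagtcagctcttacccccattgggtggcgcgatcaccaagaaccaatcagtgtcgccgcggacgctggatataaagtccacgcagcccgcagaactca
H2-D1, chr17:35262844-35263143, plus strand: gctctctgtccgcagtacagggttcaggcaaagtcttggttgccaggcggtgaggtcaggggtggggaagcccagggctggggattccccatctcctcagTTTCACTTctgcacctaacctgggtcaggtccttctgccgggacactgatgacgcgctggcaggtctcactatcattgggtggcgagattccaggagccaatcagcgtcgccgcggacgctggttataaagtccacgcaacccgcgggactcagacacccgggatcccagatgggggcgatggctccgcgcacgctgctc
B2m, chr2:122147437-122147736, plus strand: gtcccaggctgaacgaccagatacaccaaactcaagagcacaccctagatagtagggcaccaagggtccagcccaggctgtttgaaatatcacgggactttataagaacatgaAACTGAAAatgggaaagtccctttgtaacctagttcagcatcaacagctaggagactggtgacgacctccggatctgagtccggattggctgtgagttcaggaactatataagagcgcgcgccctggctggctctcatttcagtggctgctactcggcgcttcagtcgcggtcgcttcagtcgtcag
Psmb8, chr17:34197945-34198244, plus strand: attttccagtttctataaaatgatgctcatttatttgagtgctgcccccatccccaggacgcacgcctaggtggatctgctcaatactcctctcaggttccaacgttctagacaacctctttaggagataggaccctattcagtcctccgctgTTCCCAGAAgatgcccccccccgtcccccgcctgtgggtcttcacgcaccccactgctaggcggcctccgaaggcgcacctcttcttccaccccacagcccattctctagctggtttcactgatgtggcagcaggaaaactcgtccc
The core interferon regulatory factor motif was found in H2-K1, H2-D1 and B2m, 3 of the 8 matched genes, while 23.9% of all 32851 promoter windows hold it. The same letters, TTTCACTT, which are the motif on the opposite strand, stand 104 bases before the start of H2-K1 in the window shown and 150 bases before that of H2-D1, and in each gene a CCAAT box on the opposite strand follows, at 30 and 76 bases before the start. B2m has its match, AACTGAAA, 137 bases before the start. The gamma-activated sequence was found only in Psmb8 (TTCCCAGAA, 97 bases before the start) among the 8, against 8.30% of all windows. The CRE had no match in these windows, against 1.79% of all windows, and the CCAAT box was found in 6 of 8 genes, against 37.4% of all windows. Tap1 and Psmb9 lie head to head on opposite strands, so that their windows (starts 34187306 and 34187281 on chromosome 17) largely overlap. A match is a description of the letters only.

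The libraries held 17698900 to 26471758 counts, of which 0.882 to 1.65% came from the 63 spike-ins. Counts were scaled to the spike-ins (spike-in scaling) and, as the study also contrasts, to the endogenous genes (relative scaling), and all levels are given as CPM, counts per fixed amount of scaled library size, on one of these scales. The biological coefficient of variation was 0.351 on the spike-in scale and 0.232 on the relative scale. With spike-in scaling, the edgeR fit of all 8 libraries in effect used a spread shared over genes. The same held with each library but WT replicate 3 left out. The SEs, intervals and p-values of these fits therefore do not measure a gene's own spread between replicates. Over the 16470 genes the fold change had a log2 median of 0.11 (spike-in) and 0.01 (relative), and fold changes are to be read against these shifts. Xist was at 1535 CPM in WT replicate 2 and 1503 CPM in Dp1Tyb replicate 1 and at 0.519 to 3.45 CPM in the other libraries with relative scaling, so each genotype has 1 library with high Xist. Its log2 fold change nevertheless had an edgeR SE of only 0.32 with spike-in scaling, against 2.49 with relative scaling.

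All 10 genes were transcribed in every library, at very different levels. Divided by the length of the main annotated mRNA, the level with relative scaling had its lowest median over the 8 libraries in Psmb9, at 0.817 CPM per kb, followed by Psmb8 at 1.65, Nlrc5 at 2.31, Tap2 at 2.39, Tap1 at 7.14, Psmb10 at 7.43, Tapbp at 22.8, H2-K1 at 38.5, H2-D1 at 50.7 and B2m at 866. The light chain therefore stood 17.1 times above the more abundant heavy chain H2-D1 by median, and its lowest library, at 503 CPM per kb, was above the highest library of each other member. Tap2 was above Nlrc5 in 5 of 8 libraries, Psmb10 above Tap1 in 4 of 8 and Nlrc5 above Psmb8 in 6 of 8, so these neighbours in the order did not differ beyond the spread between libraries. H2-D1 was above H2-K1 in 8 of 8 libraries, Psmb8 above Psmb9 in 8 of 8 and Tap1 above Tap2 in 8 of 8.

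Some counts are uncertain because of sequence shared with other genes. Of all 100-base words in their annotated transcripts, 0.957% in H2-K1 and 3.59% in H2-D1 also occur in another gene, among them other class I chains such as H2-Q10, H2-Q5 and H2-Q7 for H2-K1 and H2-Q1 and H2-T23 for H2-D1, and reads with several alignments had been discarded. For Tapbp the share was 14.8% and for Psmb8 8.05%, shared chiefly with genes annotated on the opposite strand (Gm19412 and Gm20496), Tapbp also overlaps Zbtb22 on its own strand by 149 bases, and Tap1 and Psmb9 share 212 exonic bases on opposite strands. Whether the authors' counting used strand is not stated, so reads of these pairs may not be separated. B2m and Psmb10 shared no such word with another gene.

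**Figure D1:**
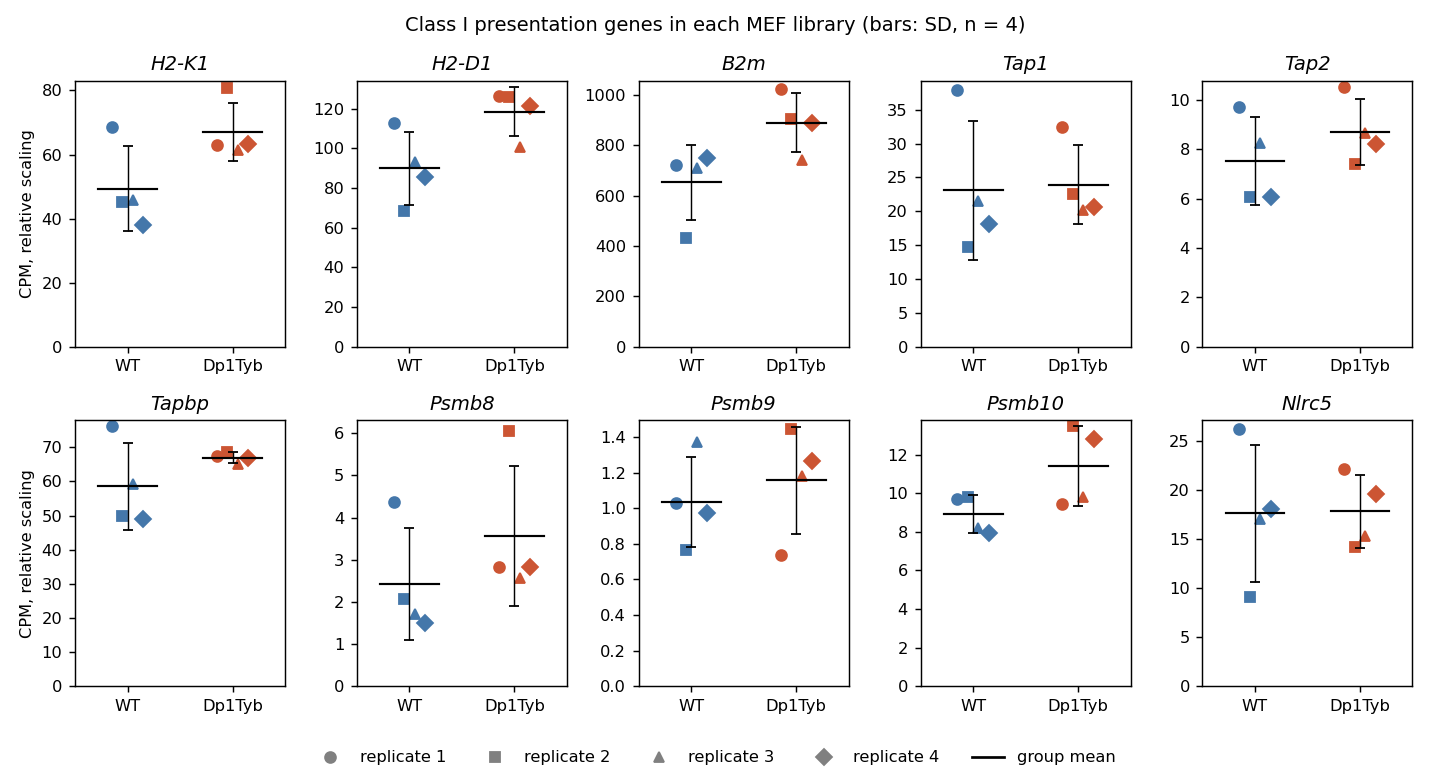
Level of each of the 10 genes with relative scaling (CPM, linear axes starting at 0) in 4 WT (blue) and 4 Dp1Tyb (orange) libraries, with marker shapes for the replicate number, the mean as a horizontal line and the SD as a bar. The 4 Dp1Tyb libraries of H2-D1 sit between 100 and 127 CPM and those of WT between 68.4 and 113 CPM, and WT replicate 1 stands above the other WT libraries for H2-K1, H2-D1, Tap1, Tap2, Tapbp, Psmb8 and Nlrc5.

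The heavy and light chains of the class I molecule were the members with the smallest p-values, with fold changes of 1.32 (H2-D1, 95% interval 1.04 to 1.67), 1.36 (H2-K1, 1.03 to 1.80) and 1.36 (B2m, 1.03 to 1.81) with relative scaling and none past the threshold. H2-D1 (ENSMUSG00000073411, 17:35262730-35267499, plus strand) was at 113, 68.4, 93.1 and 85.3 CPM in WT replicates 1 to 4 and at 127, 126, 100 and 121 CPM in Dp1Tyb replicates 1 to 4 with relative scaling. In 3 of the 4 Dp1Tyb libraries it was above all WT libraries, and Dp1Tyb replicate 3 fell within the WT range. Mean levels were 89.8 ± 18.3 CPM (WT) and 119 ± 12.2 CPM (Dp1Tyb; SD, n = 4 each), and the log2 fold change was 0.40 (SE 0.15, edgeR unadjusted p = 0.0248, adjusted p = 0.999). H2-K1 (ENSMUSG00000061232, 17:33996017-34000347, minus strand) was at 68.5, 45.3, 45.9 and 37.9 CPM in WT replicates 1 to 4 and at 63.0, 80.7, 61.6 and 63.2 CPM in Dp1Tyb replicates 1 to 4. Every Dp1Tyb library was above WT replicates 2, 3 and 4, and only Dp1Tyb replicate 2 was above WT replicate 1. Its log2 fold change was 0.44 (SE 0.18, edgeR unadjusted p = 0.0342, adjusted p = 0.999).

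B2m (ENSMUSG00000060802, 2:122147686-122153083, plus strand), the light chain shared by all class I molecules, was at 721, 432, 708 and 748 CPM in WT replicates 1 to 4 and at 1025, 904, 742 and 888 CPM in Dp1Tyb replicates 1 to 4. WT replicate 2 was far below the other WT libraries, and 3 of the 4 Dp1Tyb libraries were above all WT libraries. In log2 terms B2m differed by 0.45 (SE 0.18, edgeR unadjusted p = 0.0339, adjusted p = 0.999). The spike-in scale gave similar mean differences, with log2 fold changes of 0.49 (SE 0.32) for H2-D1, 0.49 (SE 0.32) for H2-K1 and 0.54 (SE 0.32) for B2m. The unadjusted edgeR p-values were 0.125, 0.121 and 0.0935 (each adjusted p = 1.00). These SEs and p-values rest on the spread shared over genes and not on that of each gene. Of all tested genes, 4.27% had an unadjusted p under 0.05 with relative scaling and 1.74% were in addition higher in Dp1Tyb, while 3 of the 10 members were, namely H2-D1, B2m and H2-K1. That count rested on the libraries and the scaling factors: it was 0 of 10 without Dp1Tyb replicate 2 (3.15% of all genes) and with upper-quartile factors (4.35%), and without the 2 libraries with high Xist it was 1 of 10 (13.5%), which was Psmb10.

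The ratio of a heavy chain to the light chain does not depend on the scaling of a library. Per length, the H2-D1 level was 5.73% ± 0.862 of the B2m level (WT) and 5.47% ± 0.286 (Dp1Tyb; SD, n = 4 each), and the log2 ratio differed by -0.05 (two-sided exact permutation test, p = 0.657). For H2-K1 it was 4.18% ± 1.34 (WT) and 4.05% ± 0.657 (Dp1Tyb; SD, n = 4 each), with a difference of -0.00 on the log2 scale (two-sided exact permutation test, p = 1.00). Across the libraries the H2-K1 share ran from 2.69 to 5.56%, and from 1.48 to 3.06% with the length of all annotated exons. The H2-D1 ratio was more even in Dp1Tyb, where it ran from 5.05 to 5.69%, than in WT, where it ran from 4.67 to 6.47%, a difference in spread that was not tested. Adjusted over the 6 ratios compared, no exact permutation p was under 0.986.

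The genes of the peptide transporter and its bridge varied more between libraries than between genotypes. Tap1 (ENSMUSG00000037321, 17:34187553-34197225, plus strand) was at 38.0, 14.7, 21.6 and 18.2 CPM in WT replicates 1 to 4 and at 32.5, 22.6, 20.2 and 20.6 CPM in Dp1Tyb replicates 1 to 4 with relative scaling. Replicate 1 was the highest of each genotype, the WT one above every other library, and the groups overlapped. The log2 fold change was 0.05 (SE 0.28, edgeR adjusted p = 0.999) with relative and 0.12 (SE 0.33, adjusted p = 1.00) with spike-in scaling. Its sign changed on either scale when WT replicate 2 or Dp1Tyb replicate 1 was left out. The sign also changed without WT replicate 3 with spike-in scaling (-0.041) and without WT replicate 4 with relative scaling (-0.040). Tap2 (ENSMUSG00000024339) ran from 6.07 to 9.70 CPM in WT and from 7.38 to 10.5 CPM in Dp1Tyb, with a log2 fold change of 0.21 (SE 0.20, edgeR adjusted p = 0.999). The ratio of Tap1 to Tap2 differed by -0.11 on the log2 scale, which was smaller than the replicate spread (exact permutation test, two-sided, p = 0.543), and was highest in WT replicate 1. Tapbp (ENSMUSG00000024308, 17:33915899-33929292, plus strand) was even in Dp1Tyb with relative scaling, at 67.4, 68.6, 65.0 and 66.9 CPM in replicates 1 to 4, while WT replicates 1 to 4 were at 76.4, 49.8, 59.1 and 49.0 CPM. All 4 Dp1Tyb libraries thus lay above WT replicates 2 to 4 and below WT replicate 1. The log2 fold change was 0.19 (SE 0.14, edgeR adjusted p = 0.999), and the 95% interval of the fold change ran from 0.917 to 1.43. On the spike-in scale Tapbp followed the mean log2 profile of the members, itself among them (r = 0.98). That profile ran from -0.25 in Dp1Tyb replicate 2 to 0.55 in Dp1Tyb replicate 4, so the evenness depended on the scaling.

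The immunoproteasome subunits were scarce beside the constitutive subunits they replace. Psmb8 (ENSMUSG00000024338, 17:34197721-34201454, plus strand) was at 4.38, 2.08, 1.71 and 1.5 CPM in WT replicates 1 to 4 and at 2.82, 6.06, 2.56 and 2.82 CPM in Dp1Tyb replicates 1 to 4 with relative scaling, from 31 to 105 counts per library. In each genotype 1 library stood far above the other 3, WT replicate 1 and Dp1Tyb replicate 2, and the remaining Dp1Tyb libraries were above the remaining WT libraries. The log2 fold change of 0.55 was the largest of the 10 genes but had an SE of 0.40 (edgeR unadjusted p = 0.202, adjusted p = 0.999). Psmb9 (ENSMUSG00000096727, 17:34181987-34187764, minus strand), the least abundant member, had 18 to 29 counts per library. Its log2 fold change was 0.15 (SE 0.30, edgeR adjusted p = 0.999). Psmb10 (ENSMUSG00000031897, 8:105935735-105938444, minus strand) was at 9.70, 9.80, 8.20 and 7.96 CPM in WT replicates 1 to 4 and at 9.44, 13.5, 9.79 and 12.8 CPM in Dp1Tyb replicates 1 to 4, where replicates 2 and 4 were above all WT libraries. Its log2 fold change was 0.35 (SE 0.17, edgeR unadjusted p = 0.0600, adjusted p = 0.999).

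Set against its constitutive counterpart in the same library and per length of mRNA, Psmb8 stood at 4.72% ± 2.69 of Psmb5 in WT and 6.09% ± 2.26 in Dp1Tyb, Psmb9 at 0.879% ± 0.225 of Psmb6 in WT and 0.855% ± 0.221 in Dp1Tyb, and Psmb10 at 8.18% ± 1.56 of Psmb7 in WT libraries and 8.82% ± 1.64 in those of Dp1Tyb (SD, n = 4 each). The differences between genotypes were 0.44, -0.05 and 0.11 on the log2 scale, each smaller than the replicate spread (exact permutation tests, two-sided, p = 0.371, 0.971 and 0.571). Across all libraries the shares ran from 3.20 to 9.43% for Psmb8, from 0.524 to 1.17% for Psmb9 and from 6.96 to 11.1% for Psmb10. The length matters for these shares: with the length of all annotated exons in place of the main mRNA they ran from 1.54 to 4.54%, from 0.454 to 1.02% and from 15.8 to 25.2%. The comparison between genotypes does not depend on it. Psmb5 shares 22.2% of its 100-base words with other annotated genes, chiefly Gm3375, so its counts may be too low.

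**Figure D2:**
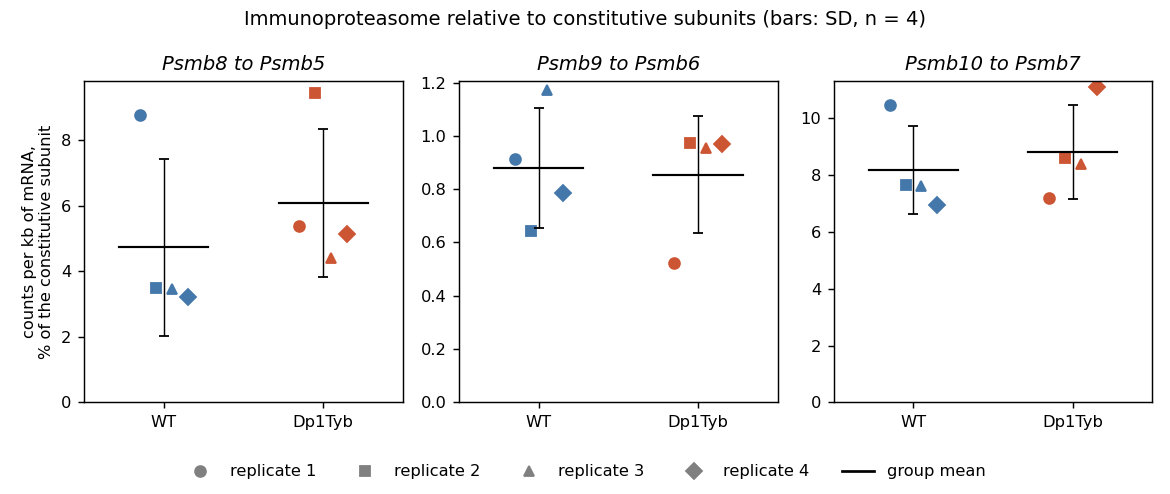
Counts per kb of mRNA of each immunoproteasome subunit as a percentage of the constitutive subunit it replaces, in 4 WT (blue) and 4 Dp1Tyb (orange) libraries, with the mean as a line and the SD as a bar. The groups overlap in all 3 panels, and WT replicate 1 and Dp1Tyb replicate 2 stand apart for Psmb8.

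Nlrc5 (ENSMUSG00000074151, 8:94434356-94527272, plus strand), the transactivator, was at 26.2, 9.12, 17.0 and 18.1 CPM in WT replicates 1 to 4 and at 22.1, 14.1, 15.3 and 19.6 CPM in Dp1Tyb replicates 1 to 4 with relative scaling. The Dp1Tyb libraries lay inside the WT range. Mean levels were 17.6 ± 7.0 CPM (WT) and 17.8 ± 3.72 CPM (Dp1Tyb; SD, n = 4 each), and the log2 fold change was 0.02 (SE 0.28, edgeR adjusted p = 0.999), with a 95% interval of the fold change from 0.654 to 1.57. Its sign changed when WT replicate 2, Dp1Tyb replicate 1 or Dp1Tyb replicate 4 was left out on either scale, and without WT replicate 3 with spike-in scaling. The fold of its target genes H2-K1, H2-D1 and B2m was not compared with that of Nlrc5 by a test.

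Across the set, no member was called at an adjusted p under 0.05 in edgeR on either scale, where 0.0121% (spike-in) and 0.0182% (relative) of all tested genes were called. DESeq2 also called no member, while it called 2 (spike-in) and 54 (relative) of the 16470 tested genes. With spike-in scaling 0 of 10 members had an unadjusted p under 0.05, against 1.17% of all genes (0.85% higher in Dp1Tyb). All 10 fitted fold changes were above 0, as were 70.4% of all genes with spike-in and 51.2% with relative scaling. In log2 terms the 10 had a median of 0.39 (spike-in) and 0.28 (relative), beside 0.11 and 0.01 for all tested genes. All 10 were above the median of all genes on both scales, but Nlrc5 only barely. It was at 0.1128 against 0.1123 with spike-in and at 0.017 against 0.006 with relative scaling. Without Dp1Tyb replicate 1, or without the 2 libraries with high Xist, 8 of 10 were above that median on each scale. For no member did every Dp1Tyb library lie above every WT library, which 0.285% of all genes did with spike-in and 1.64% with relative scaling.

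**Figure D3:**
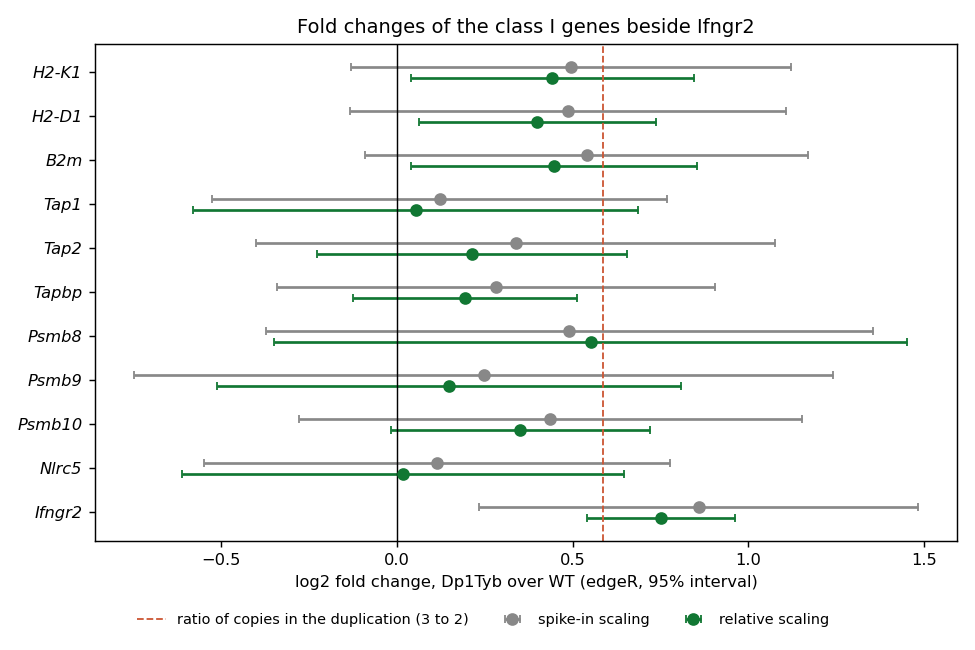
Log2 fold change of Dp1Tyb over WT (edgeR, n = 4 libraries each) for the 10 genes and for Ifngr2, with 95% intervals, under spike-in (grey) and relative (green) scaling, beside lines at 0 and at the 3 to 2 ratio of copies. All 10 points are above 0 and all 10 intervals under spike-in scaling include 0, while Ifngr2 lies at 0.75 (relative) and 0.86 (spike-in).

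The receptor gene was higher in every Dp1Tyb library than in every WT library with relative scaling, and in 3 of 4 with spike-in scaling. Ifngr2 (ENSMUSG00000022965, 16:91547072-91565623, plus strand) was at 48.8, 59.2, 54.9 and 57.3 CPM in WT replicates 1 to 4 and at 87.5, 95.9, 95.8 and 91.3 CPM in Dp1Tyb replicates 1 to 4 with relative scaling. Its fold change was 1.68 (95% interval 1.45 to 1.95) with an edgeR adjusted p of 0.0537, and on that scale DESeq2 called it with an adjusted p of 2.41e-08. The edgeR call depended on the setting, with an adjusted p of 0.0475 with upper-quartile factors and 0.0374 with a term for the replicate number. No label ties these numbers to a litter or day. The fold change of Ifngr2 with spike-in scaling was 1.81 (95% interval 1.18 to 2.80, edgeR adjusted p = 1.00). Its partner chain Ifngr1, on chromosome 10, stood at a log2 fold change of 0.14 (SE 0.17, relative scaling), Jak1 of 0.00 (SE 0.10) and Jak2 of 0.06 (SE 0.25), each with an edgeR adjusted p of 0.999 or above. Jak2 was lowest in the 2 libraries that were highest for Tap1, at 72.8 CPM in WT replicate 1 and 60.9 CPM in Dp1Tyb replicate 1, against 114 to 138 CPM in the other 6. With the mean log2 profile of the members, however, r of Jak2 was -0.37 (relative) and 0.11 (spike-in), and a link was not tested. Ifng, the ligand, was not among the genes of the table.

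Each member was then set against Ifngr2 within the same library. The log2 ratio was lower in Dp1Tyb for 10 of 10 members, by 0.16 (Psmb8) to 0.66 (Nlrc5), as it was for 99.3% of all other tested genes. Only Tapbp had every Dp1Tyb library below every WT library in this ratio (difference -0.54). Of all other tested genes, 62.3% separated in this way, against 1 of the 10 members. Ifngr2 itself differs between the genotypes, so a gene with a narrow spread separates without any change of its own. The count therefore does not show whether a member changed with Ifngr2. Two-sided exact permutation tests on these ratios, adjusted over the 10 members, gave no p under 0.214, for Tapbp or any other member. The 95% interval of the edgeR fold change stayed under 1.5 only for Tapbp with relative scaling, and for the other 9 members it included 1.5.

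The order of the libraries was compared across members. Within WT, replicate 1 was the highest library for 7 of 10 members with relative scaling and for 9 of 10 with spike-in scaling, and replicate 2 was the lowest for 6 of 10 on each. Within Dp1Tyb, replicate 1 and replicate 2 were each the highest for 5 of 10 members with relative scaling, and replicate 3 was the lowest for 6. The order within Dp1Tyb depended on the scaling, since on the spike-in scale replicate 4 was the highest for 5 members and replicate 2 the lowest for 8. The summed level of the 10 genes was 1068, 638, 965 and 973 CPM in WT replicates 1 to 4 and 1360, 1244, 1026 and 1205 CPM in Dp1Tyb replicates 1 to 4, a sum dominated by B2m.

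The list of other interferon-gamma targets was Irf1, Gbp2, Gbp3, Gbp5, Gbp7, Irgm1, Igtp, Iigp1, Cxcl9, Cxcl10, Cd274 and Icam1, of which 11 were in the table and 10 were tested. None was called on either scale, 9 of the 10 had a log2 fold change above 0 with relative scaling, and their median was 0.33, beside 0.01 for all tested genes. Their summed level was 277, 131, 141 and 121 CPM in WT replicates 1 to 4 and 230.5, 245, 189 and 167 CPM in Dp1Tyb replicates 1 to 4, so that WT replicate 1 stood above all other libraries and every Dp1Tyb library above WT replicates 2 to 4. Over the 8 libraries, r with the mean profile of the members (relative scaling) was 0.91 for Gbp3 and Gbp7 but 0.43 for Irf1, 0.28 for Cxcl10 and 0.22 for Cd274. For the rest of the tested list it ran from 0.74 (Icam1) to 0.88 (Igtp). The smallest p-values belonged to Cxcl10, a chemokine (log2 fold change 0.60, SE 0.32), and Irgm1, an interferon-induced GTPase (0.51, SE 0.31), both with an edgeR adjusted p of 0.999.

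Among 14455 tested genes with a mean of at least 1 CPM, the genes outside the chosen lists whose levels followed the mean profile of the 10 members most closely over the 8 libraries were Ifi35 (Pearson's r = 0.96, Spearman's rho = 0.90), Lgals3bp (r = 0.96, rho = 0.95), Ctsz (r = 0.95, rho = 0.93), Irf7 (r = 0.94, rho = 0.98) and Cish (r = 0.94, rho = 0.93). Ifi35 and Irf7 are interferon-induced genes, Irf7 being a transcription factor of the interferon response. These are the highest of many correlations and a description of 8 libraries. Irf7 was at 18.3 CPM in WT replicate 1 and 5.73 to 6.40 CPM in the other WT libraries, and at 10.3 to 17.1 CPM in Dp1Tyb. Each member is itself part of the mean profile, which raises its r, so these values are not like those of outside genes. Among the members r was highest for Tapbp and H2-D1 (each 0.96). It was lowest for Psmb9 (0.39), Psmb10 (0.56) and Nlrc5 (0.67).

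**Figure D4:**
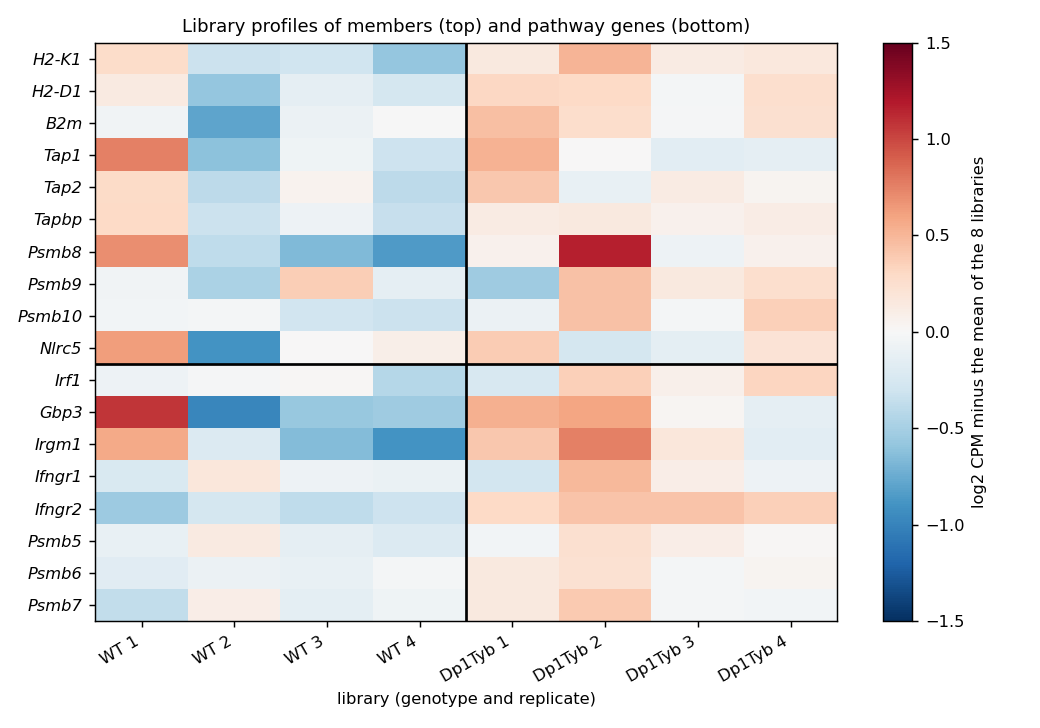
Log2 CPM with relative scaling minus the mean of the 8 libraries (colour, red above and blue below the mean) for the 10 genes (above the line) and for genes of the pathway (below it), with 4 WT libraries to the left of the line and 4 Dp1Tyb libraries to its right. Gbp3 and Irgm1 share the high value of WT replicate 1 with Tap1 and Psmb8, and Ifngr2 divides the genotypes.

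Of the class I assembly partners Calr, Canx, Pdia3, Erap1, Tapbpl and Uggt1, all 6 were tested, none was called and all 6 had a log2 fold change above 0 with relative scaling (median 0.11). The 2 smallest p-values were those of Canx, a chaperone of new heavy chains (0.13, SE 0.12), and Erap1, which trims peptides (0.12, SE 0.13), both with an edgeR adjusted p of 0.999. Of the other class I and class I-like chains, 12 of 17 were in the table and tested, with none called, 7 above and 5 below 0, and a median of 0.07. H2-T22 (0.25, SE 0.16) and H2-M3 (0.43, SE 0.31) had the smallest p-values of these. Of the constitutive subunits and activators, 0 of 8 were called and 7 were above 0, with a median of 0.18. The constitutive subunits were at log2 fold changes of 0.16 (Psmb5, SE 0.12), 0.20 (Psmb6, SE 0.09) and 0.24 (Psmb7, SE 0.13), and the interferon-inducible activator subunits at 0.24 (Psme1, SE 0.14) and 0.10 (Psme2, SE 0.15). Psmb6 was higher in all 4 Dp1Tyb libraries than in all WT libraries with relative scaling (edgeR unadjusted p = 0.0517, adjusted p = 0.999), as were 1.64% of all genes, and overlapped between the groups with spike-in scaling. Pomp, which helps to assemble proteasomes, was at 0.24 (SE 0.12).

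Of the transcription factors of class I genes, 9 of 10 were tested and none was called, with 5 above and 4 below 0. Rfx5, a DNA-binding protein of the complex that Nlrc5 joins at class I promoters, was lower in every Dp1Tyb library, at 8.66, 9.63, 9.01 and 8.52 CPM against 16.4, 10.9, 12.2 and 10.2 CPM in WT replicates 1 to 4 (log2 fold change -0.47, SE 0.17, edgeR unadjusted p = 0.0188, adjusted p = 0.999), while 1.52% of all genes had every Dp1Tyb library below every WT library. Irf1, the interferon-gamma induced factor, had 0.25 (SE 0.16). With spike-in scaling Rfx5 overlapped between the groups. The class II genes were near the lower limit of the data: H2-Aa was not in the table, H2-DMa alone was tested (0.51, SE 0.26, edgeR adjusted p = 0.999), and the summed level of the 6 genes present was 3.94 to 7.08 CPM.

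Bulk cultures can hold cells other than fibroblasts, and in such samples fewer cells of a type and less RNA per cell cannot be told apart. The fibroblast markers Col1a1, Col1a2, Col3a1, Pdgfra, Pdgfrb, Thy1, Dcn, Lum and Vim were all present, with a summed level of 12734.5 to 21646.5 CPM with relative scaling. Of the 12 macrophage and leukocyte markers, cells that carry much class I, 11 were tested and all 11 had a log2 fold change below 0 with relative scaling (median -0.56), 8 of them with an unadjusted edgeR p under 0.05, against 2.53% of all genes that were lower at this p (1 with spike-in scaling, against 0.316%), and none called. Their summed level was 327 to 431 CPM in WT and 182 to 343 CPM in Dp1Tyb, and the groups overlapped. Ptprc, the pan-leukocyte marker, was at 13.7 to 15.1 CPM in WT and at 7.08 to 8.25 CPM in Dp1Tyb with relative scaling (log2 fold change -0.87, SE 0.12, edgeR adjusted p = 0.0903). On that scale DESeq2 called it with an adjusted p of 5.79e-07. The 5 endothelial markers present summed to 31.8 to 78.9 CPM and the 5 epithelial markers to 3.56 to 15.3 CPM, with no call in either list. The part of these cells in the levels of the class I genes was not tested.

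The size of the difference between genotypes depended on which libraries entered the fit. With each library left out in turn, the median log2 fold change of the members ran with relative scaling from 0.22 (without WT replicate 2, WT replicate 4 or Dp1Tyb replicate 2) to 0.40 (without WT replicate 1), around 0.28 with all libraries. With spike-in scaling it ran from 0.24 (WT replicate 3 left out), 0.25 (Dp1Tyb replicate 4) and 0.27 (WT replicate 2) to 0.50 (Dp1Tyb replicate 2) and 0.63 (WT replicate 1), around 0.39 with all libraries, while the median of all tested genes ran from -0.02 to 0.28. Without WT replicate 1, the relative log2 fold change was 0.65 for H2-K1 (edgeR unadjusted p = 0.00102, adjusted p = 0.378), 0.53 for H2-D1 (unadjusted p = 0.00377, adjusted p = 0.635), 0.35 for Tapbp (unadjusted p = 0.00740, adjusted p = 0.804) and 1.01 for Psmb8 (unadjusted p = 0.0187, adjusted p = 0.998). In that fit 5 of 10 members had an unadjusted p under 0.05, against 4.55% of all genes. No member was called in this fit, where 0.00602% of all genes were, or in any other fit that left out a library. Without Dp1Tyb replicate 2, H2-K1 was at 0.34 (edgeR unadjusted p = 0.0990, adjusted p = 1.00), H2-D1 at 0.37 (unadjusted p = 0.0548, adjusted p = 1.00), B2m at 0.44 (unadjusted p = 0.0606, adjusted p = 1.00) and Psmb8 at 0.17 (unadjusted p = 0.651, adjusted p = 1.00). On the spike-in scale 3 of 10 members had an unadjusted p under 0.05 without WT replicate 1 and 3 of 10 without Dp1Tyb replicate 2, against 2.06% and 3.21% of all genes. Leaving out each library in turn gave 0 to 5 of 10 members under an unadjusted p of 0.05 with relative and 0 to 3 with spike-in scaling. Without Dp1Tyb replicate 1, Tap1 was at -0.13 and Nlrc5 at -0.10. Without the 2 libraries with high Xist, 8 of 10 members stayed above 0 (50.1% of all genes were above 0 there) and the median was 0.21, with Tap1 at -0.29 and Nlrc5 at -0.32.

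**Figure D5:**
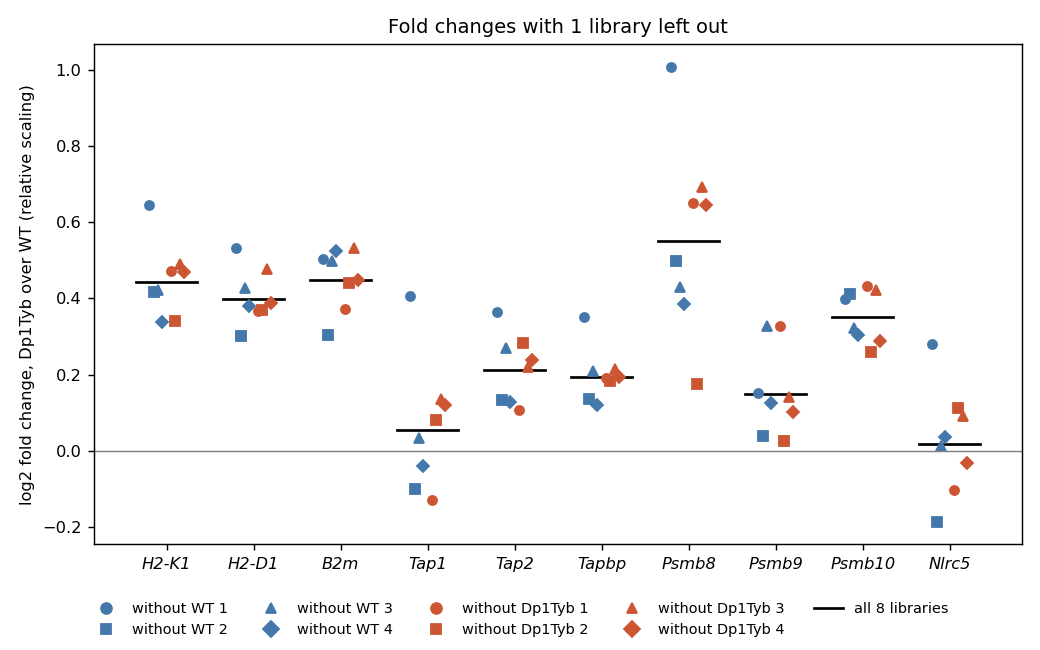
Log2 fold change of Dp1Tyb over WT with relative scaling for the 10 genes, with all 8 libraries (black line) and with each library left out in turn (blue for a WT and orange for a Dp1Tyb library, marker shape for the replicate number). Leaving out WT replicate 1 gives the highest value for H2-K1, H2-D1, Tap1, Tap2, Tapbp, Psmb8 and Nlrc5, and the points of Tap1 and Nlrc5 fall on both sides of 0.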

How the data were processed

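Poly(A) RNA of 4 WT and 4 Dp1Tyb MEF libraries with ERCC spike-ins was sequenced by the authors, who per the labels and methods trimmed adapters with Trim Galore, aligned reads with TopHat2 2.0.12 to GRCm38 with spike-in sequences, discarded reads with several alignments and counted with htseq-count. The strand option and annotation release are not given in the sources used here. The deposited table holds raw counts per gene; the deposited normalised values and the authors' table of DESeq2 fold changes and p-values were not used. Gene names, positions and lengths came from GENCODE M21 (19318 of 19493 gene IDs matched); the main mRNA is the longest APPRIS principal transcript.

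Genotypes were compared in edgeR 4.0.16 (R 4.3.3, quasi-likelihood F-test, filterByExpr), with median-of-ratios factors of the spike-ins or TMM factors of endogenous genes, and Benjamini-Hochberg adjustment over all 16470 genes (threshold 0.05). The SE is the log2 fold change divided by the root of F. Ratios of counts, with a pseudocount of 0.5, were compared by two-sided exact permutation tests over 70 assignments. Alternatives were DESeq2 1.42.0, other factors, other filters, a pseudocount of 5, a replicate block and leaving out each library; a term for Xist and the exclusion of libraries with high Xist were added after the data had been seen. One gene of the fixed lists is not reported here and was left out of their counts and sums. Members and lists were chosen with earlier results of these data known. Genes named were all members, the receptor chain pair with Jak1, Jak2 and Irf1, and the constitutive and activator subunits. Named as well were the 2 genes with the smallest relative p of a list where described, and genes called in DESeq2 or another alternative. The 5 genes outside the lists most like the members were also named, as were other interferon-gamma targets for their r with the members. The fits were also run on simulated counts, with the same spread for every gene and spike-ins that varied only by counting. That setting differs from these data, so it does not show how the fits treat genes of unequal spread.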

Additional observations from a re-analysis of the deposited data

Results flagged for a closer look

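Of 52 sets of 4 libraries examined, the 10 members on both scales and the 6 ratios in each genotype, 6 had 1 library far from the other 3, and chance alone marks about 1 in 20. With relative scaling H2-K1 was at 80.7 CPM in Dp1Tyb replicate 2, against 61.6 to 63.2 CPM in the other Dp1Tyb libraries, and Psmb8 in the same library was at 6.06 CPM, against 2.56 to 2.82 CPM. B2m was at 432 CPM in WT replicate 2, the WT library with high Xist, against 708 to 748 CPM in the other WT libraries. With spike-in scaling Psmb8 was at 5.19 CPM in WT replicate 1, against 1.22 to 1.83 CPM in the other WT libraries, and its log2 ratio to Psmb5 was -2.65 there, against -4.09 to -3.97. The log2 ratio of Psmb9 to Psmb6 was -6.78 in Dp1Tyb replicate 1, against -5.92 to -5.89 in the other Dp1Tyb libraries, and rests on 19 counts of Psmb9.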

How the results depend on the processing

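No member was called under any alternative, and of the members' own values 155 kept and 5 changed direction under settings other than leaving out a library. Without the 2 libraries with high Xist, an alternative chosen after seeing the data, Tap1 was at -0.35 (spike-in) and -0.29 (relative) and Nlrc5 at -0.31 and -0.32, and with upper-quartile factors Nlrc5 was at -0.033 (relative). Leaving out each library in turn gave log2 fold changes from -0.15 to 0.64 (spike-in) and -0.13 to 0.41 (relative) for Tap1 and from -0.13 to 0.51 and -0.19 to 0.28 for Nlrc5. The log2 differences in ratio then ran from 0.21 to 0.78 (Psmb8 to Psmb5), -0.19 to 0.17 (Psmb9 to Psmb6), -0.0089 to 0.23 (Psmb10 to Psmb7), -0.19 to 0.15 (H2-K1 to B2m), -0.15 to 0.0083 (H2-D1 to B2m) and -0.20 to 0.029 (Tap1 to Tap2).

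The number of genes called among all tested was 2 (spike-in) and 3 (relative). It was 54 in DESeq2 (relative), 0 on both scales with at least 10 counts in every library, 1 with a term for Xist (relative), 5 and 18 without the libraries with high Xist, and 2 to 8 (spike-in) and 1 to 1 (relative) with each library left out. In the pathway and marker lists 0 genes were called in edgeR on either scale. With each library left out, 0 to 1 were called with spike-in scaling. That gene was Xist, in the list of sex-linked genes, when 1 of the 2 libraries rich in it was left out. With relative scaling 2 were called in DESeq2 (Ifngr2 and Ptprc) and 1 with upper-quartile factors (Ifngr2). Without the libraries with high Xist, 2 were called with relative scaling (Ifngr2 and Cd68). With spike-in scaling 0 were called in DESeq2 and 0 without the libraries with high Xist. Of the 5 genes most like the members, 2 were shared with spike-in scaling. The cause of these changes was not tested. Same-numbered libraries of the genotypes correlated at 0.37, 0.52, 0.03 and 0.33 in their deviations from the group means, and 3 of the 4 WT libraries correlated best with their own number, which is a hint from the data, while WT replicate 3 correlated best with Dp1Tyb replicate 4 (0.32). No label ties a number to a litter or day, so the numbers were not taken as pairs. With a replicate block 9 (spike-in) and 7 (relative) genes were called, 1 of them in the pathway lists (Ifngr2, adjusted p = 0.0374 against 0.0537 without the block, relative scaling) and no member, and 4 of 10 members had an unadjusted p under 0.05 on each scale, against 3.03% (spike-in) and 9.72% (relative) of all genes. Psmb9 rests on 18 to 29 counts per library.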
